A study of Mus musculus with 6 samples.

Results

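Mouse piRNA genes are catalogued either under the name of a host gene or, where they have none, under the chromosome band in which they lie, such as 10-qB4-6488. Of 214 piRNA genes with reads in these files, 100 carried a band name and 114 a gene name. The genes described here are the 88 band-named ones that remained after 12 others, among them 9-qF4-150, 3-qA2-617, 14-qA3-2286 and 14-qA3-19970, were set aside by name, a choice made with earlier results of these data known. A read counted for a gene when every place it mapped to lay in that 1 piRNA gene (a one-gene read), and its copies were counted a single time per library. The 88 genes lay on 18 chromosomes and in 49 bands, and 24 bands held more than 1 of them, 63 genes in all.

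The reads came from small RNA libraries of purified primordial germ cells, the precursors of sperm, of male mouse embryos at E13.5 (embryonic age in days). There were 3 libraries of untreated control cells and 3 of cells given ionizing radiation (IR), numbered 1 to 3 in each group. The labels give no dose, no time after exposure, no strain and no genotype, and do not say whether replicates came from separate animals. The p-values given here therefore set group differences only against the spread between these libraries, and that spread may be technical. Because the files hold only reads placed on piRNA cluster transcripts, the labelled cell type could not be checked: none of 19 fixed markers of germ cells, gonadal somatic cells, endothelium or blood names a piRNA gene with reads.

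PIWI-interacting RNAs (piRNAs) are cut from long single-stranded transcripts of dedicated loci and loaded into PIWI proteins, which silence transposons in the germ line. They are longer than microRNAs, usually begin with U, and those made by the cut of another PIWI protein tend to carry A at base 10. Many mouse band-named loci are intergenic clusters whose output is best known from pachytene spermatocytes of the postnatal testis, a stage far later than the fetal germ cells studied here, whose piRNAs are known mostly from transposon sequences and from gene transcripts.

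The 88 genes gave 7278 reads of 5337 distinct sequences, 15.7% of the 46254 one-gene reads, and 4836 of the sequences occurred as a single read over all 6 libraries. The control libraries held 1502, 861 and 1102 such reads and the IR libraries 1442, 1421 and 950. In each library 72 to 82 of the 88 genes had at least 1 read, and 60 genes had reads in all 6. A further 9132 reads with a place on one of these genes, 55.6% of the 16410 reads with such a place, also mapped to another piRNA gene and were not counted. Depth was low for most genes: 37 genes had 60 reads or more over the 6 libraries and took 86.7% of the reads, 33 had 10 to 59, and 18 had under 10. A count of 3 reads equalled 324 to 495 CPM, counts of one-gene reads scaled to a common effective library size, depending on the library.

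Control replicate 1 stood apart from the other 5 libraries, and results that rest on it are given with and without it. Of its reads in the 88 genes, 46.9% were 24 to 32 nt long, the size range taken here for piRNAs, against 26.4% and 26.9% in control replicates 2 and 3 and 23.1%, 24.8% and 26.7% in the IR libraries. Of its reads of that size 65.9% began with U, against 36.6% and 27.7% in the other controls and 35.4%, 30.4% and 32.7% after IR. The sense strand took 66.2% of its reads, and 53.9% to 58.0% of those in the other libraries.

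**Figure D1:**
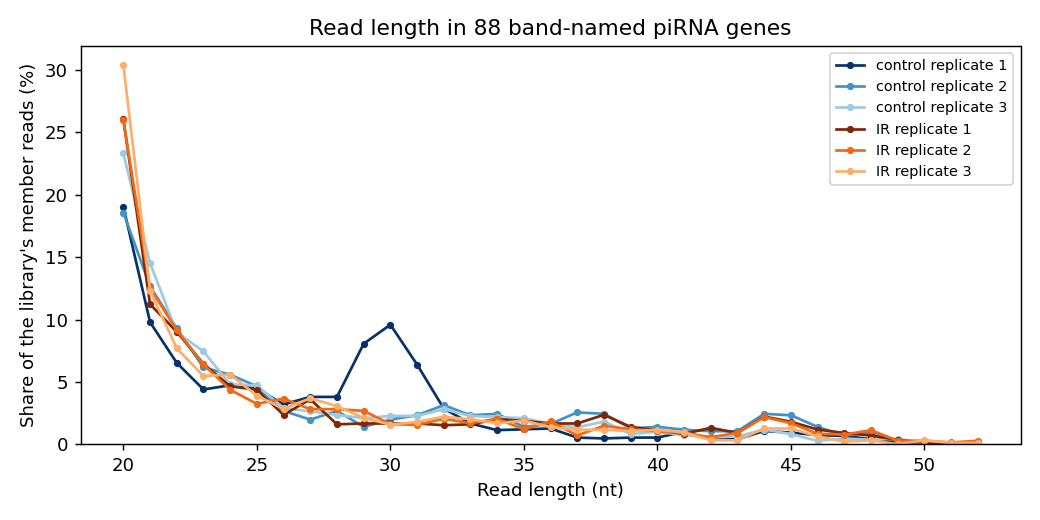
Share of each library's reads in the 88 genes (vertical axis, percent) by read length from 20 to 52 nt (horizontal axis), with 1 line per library, blue for control and orange to brown for IR. All libraries are highest at 20 nt, and control replicate 1 alone has a further rise at 29 to 31 nt.

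The reads that the results turn on are shown in 3 kinds: fragments with the sequence of annotated small RNAs, abundant short reads without such a match, and long reads beginning with U that were each read 1 or 2 times. Reads were compared in sense with GENCODE vM21 transcripts (mm10). The first kind is shown by the leading reads of 4 genes and a read of 10-qC1-12816, written 5′ to 3′ as DNA, with T for U. The first has the sequence of mt-Tl1, a mitochondrial leucine tRNA (chrM:2676-2750, plus strand). The second lies in the hairpins of Mir297a-3, Mir297a-4, Mir297b and Mir297c, microRNA genes in a cluster on chromosome 2. The third is the start of miR-148b-3p (Mir148b, chr15:103285125-103285221, plus strand). The fourth lies in Rn7s1 and Rn7s2, genes of 7SL RNA, the RNA of the signal recognition particle, on chromosome 12. The fifth has the sequence of Gm23246, a small nucleolar RNA gene (chr19:8725594-8725660, plus strand).
10-qB4-6488: attagggtggcagagccagg
9-qA5.3-24188: atatacatacacacatacccat
14-qA3-284: tcagtgcatcacagaacttt
10-qC1-12816: atagcgagaccccgtctctt
13-qA3.1-355: gagaaaggtattttctgagt

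The mature microRNA of RefSeq (GRCm38.p6) that the 14-qA3-284 read begins with is shown next, its seed (bases 2 to 8) in capitals, with 2 further microRNAs that leading reads of other genes resembled. The leading read of 7-qD2-24830 started at base 2 of miR-183-5p and differed from it by C21T, and that of 2-qG3-1029 started at base 1 of miR-26b-5p and differed by A16G, in positions counted from 1 at the 5′ end of the microRNA, with the microRNA's base first. These 3 microRNAs have different seeds. The reads were placed on cluster transcripts, so such a match does not say where a read was made.
mmu-miR-148b-3p: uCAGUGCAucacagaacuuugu
mmu-miR-183-5p: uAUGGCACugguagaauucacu
7-qD2-24830 read: atggcactggtagaattcat
mmu-miR-26b-5p: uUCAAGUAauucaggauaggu
2-qG3-1029 read: ttcaagtaattcagggtaggt

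The second kind is shown by the leading reads of 3 genes, which matched no annotated transcript exactly.
4-qC5-17839: tgtaaatgatgaactcactg
6-qF3-28913: tgtctgtgatgtatagctgag
6-qF3-1063: tggagttcgaggacagcctggtc

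The third kind is shown by 1 read of 29 to 31 nt from each of 6 genes, all found in control replicate 1 and in no other library, with the first base in capitals. They were chosen after their values were seen. They were picked among reads on the sense strand of the cluster transcript, so their strand is part of the choice.
9-qC-31469: Tgttctttcagaggtcctcagttttaactc
17-qA3.3-27363: Tggctctcttcctttgtaggcttttgggg
4-qC5-17839: Tttgtgatcttggaggaatgattaagaggt
12-qE-23911: Tcagtaatttgaggaccaaagaggcctgga
5-qF-14224: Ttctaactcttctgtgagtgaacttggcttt
9-qA5.3-24188: Tgttacaattgtgaagaatgagatagactt

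Most reads of the 88 genes had no exact sense match to an annotated transcript. Such reads made up 66.9%, a class that includes the read of 7-qD2-24830 that differs from miR-183-5p by 1 base, and 17.3% matched transcripts of other classes. Small nuclear RNA took 4.04%, microRNA hairpins 3.42%, runs of A 3.39%, mitochondrial tRNA 2.17%, 7SL and other miscellaneous RNA 1.53% and small nucleolar RNA 1.21%. Annotated small RNA and runs of A together took 11.3%, 17.4% and 13.2% of the reads in the control libraries and 19.4%, 17.0% and 17.4% in the IR libraries, so the groups overlapped.

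The 10 genes with most reads took 46.0% of the total. The most read was 10-qB4-6488, with 123, 66 and 145 reads in control and 144, 110 and 131 in IR libraries. The mitochondrial tRNA fragment printed above gave 156 of its 719 reads, as 22, 4 and 34 in control and 39, 24 and 33 in IR libraries. Control replicate 2 had the fewest such reads and the groups overlapped. The gene held 429 distinct sequences in all, 71.6% of its reads were sense, and only 21.5% of its reads of 24 to 32 nt began with U.

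15-qE1-1119 had 67, 69 and 49 reads in control and 121, 112 and 45 in IR libraries. Its leading sequences were runs of 44, 45 and 48 A with 60, 57 and 28 reads, which map to the minus strand of its transcript. All 247 A-run reads of the 88 genes fell in it, and 67.4% of its reads were 33 nt or longer.

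1-qE2.3-2 was read on the sense strand alone. Its 371 reads covered positions 1 to 122 of its transcript. Of these, 264 (71.2%) matched Gm22710, a small nuclear RNA gene on the minus strand of chromosome 1 (chr1:118459141-118459265), which lies within the antisense transcript gene 2900060B14Rik. Its reads numbered 66, 74 and 55 in control and 64, 67 and 45 in IR libraries, 292 distinct sequences with none above 6 reads. At 40.4% its share of 24 to 32 nt reads was among the higher ones, yet 25.3% of those reads began with U.

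10-qC1-12816 gave 48, 44 and 40 control and 80, 94 and 44 IR reads. A group of 7SL-like reads whose 5′ ends lay within 2 nt of the leading one, at positions 8816 to 8819 of its transcript, gave 136 of its 350 reads, as 6, 15 and 4 in control and 40, 48 and 23 in IR libraries. The 3 IR libraries all lay above the 3 controls. This window was chosen after its values were seen and was not tested. The most read sequence of the group, with 36 reads, was the printed 7SL read with 1 more A at its 3′ end.

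Several other genes were led by 1 stack of reads with a common 5′ end. Over the 88 genes, 72 5′ ends with 10 reads or more lay in 31 genes and held 2029 reads, 27.9% of the total. In 4-qC5-17839 reads starting at positions 39206 to 39208 of the minus strand made up 55.2% of 286 reads, with 55, 18 and 19 in control and 36, 19 and 11 in IR libraries. Control replicate 1 was the highest, and the groups overlapped. In 6-qF3-28913 reads starting at positions 27581 and 27582 of the minus strand made up 46.1% of 191 reads, with 25, 10 and 26 in control and 9, 13 and 5 in IR libraries. Reads starting at the main position of these stacks, 39207 and 27582, were 20 to 23 nt long, shorter than the size range taken for piRNAs.

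The stack of 6-qF3-1063 held longer reads. In all, 104 of its 274 reads started at position 696, as 9 sequences of 20 to 27 nt that include the read printed above, and numbered 11, 13 and 16 in control and 31, 16 and 17 in IR libraries. Of the gene's reads of 24 to 32 nt 80.2% began with U, and 82.3% without control replicate 1. Sequences of 24, 25 and 26 nt from position 696 gave 19, 20 and 13 of these 77 U-first reads. The share thus counts 1 start position many times. In 8-qE1-3748 the stack ran antisense: 142 of 205 reads started at positions 1072 to 1076 of the minus strand, as 93 distinct sequences. A stretch of A followed its first bases, as in the read cgactcttagcaaaaaaaaa, and 9.76% of the gene's reads were sense. It had 26, 24 and 38 control and 66, 34 and 17 IR reads.

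In other genes reads were dispersed, with hardly any sequence read repeatedly. 17-qA3.3-27363 had 199 distinct sequences among 208 reads, 6-qD1-2831 185 among 198, 10-qC1-875 164 among 169, 7-qD2-40 155 among 165 and 13-qA5-464 60 among 60. 6-qD1-2831 had the third highest share of 24 to 32 nt reads among genes with 60 reads or more, 43.4%, with 23.3% of them beginning with U. Of its 198 reads 29 matched transcripts of Tmem72, a transmembrane protein gene on the minus strand (chr6:116679063-116716913), in sense and 33 in antisense, and its reads numbered 27, 23 and 33 in control and 38, 46 and 31 in IR libraries.

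Size and first base differed widely between genes. Among the 37 genes with 60 reads or more the share of 24 to 32 nt reads ranged from 9.84% to 44.3%, with a median of 32.5%. It was highest in 5-qF-14508 (44.3%), 17-qA3.3-26735 (43.6%) and 6-qD1-2831 (43.4%) and lowest in 13-qA3.1-355 (9.84%), 6-qF3-3040 (12.7%) and 4-qC5-17839 (13.3%). Without control replicate 1 the shares of the first 3 were 39.7%, 36.0% and 45.0% and those of the last 3 were 9.43%, 12.5% and 7.14%, in the same order. The 3 lowest were then 9-qA5.3-24188 (6.96%, from 13.8%), 4-qC5-17839 and 18-qE1-36451 (8.57%, from 36.5%), so that this order depended on 1 library. In 5-qF-14508 a single sequence of 24 nt, the low edge of the range, gave 20 of its 35 reads of 24 to 32 nt. In 13-qA3.1-355 the snoRNA fragment printed above gave 20 of 61 reads, and in 6-qF3-3040 annotated small RNA gave 47.6% of 63 reads. Among genes with 40 reads or more of 24 to 32 nt, the share beginning with U was highest in 18-qE1-36451 (81.0% of 42), 6-qF3-1063 (80.2% of 96) and 6-qF3-28913 (67.4% of 43). It was lowest in 8-qE1-3748 (12.5% of 64), 10-qB4-6488 (21.5% of 186) and 6-qD1-2831 (23.3% of 86). 6-qF3-1063 and 8-qE1-3748 were led by the stacks described above, so that their shares may rest largely on those start positions. The value of 18-qE1-36451 rested on control replicate 1, which held 36 of the 42 reads, 30 of them beginning with U. That library also held 26 of the 43 reads of 6-qF3-28913, whose share without it was 52.9% of 17. Without it 12 genes had 40 such reads or more, and the highest shares were those of 6-qF3-1063 (82.3% of 79) and 14-qA3-284 (62.5% of 40) and the lowest those of 8-qE1-3748 (9.62% of 52) and 6-qD1-2831 (19.5% of 77).

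Genes of 1 band differed in the size of their reads. Of the 3 genes of 15-qE1, 15-qE1-1119 had 13.6% and 15-qE1-8387 36.0% of reads at 24 to 32 nt. Of the 4 genes of 6-qF3, 6-qF3-1063, largely through its stack, and 6-qF3-28913 were rich in first U. So was 6-qF3-8009, with 9 of only 10 reads of 24 to 32 nt, all 10 in control replicate 1. 6-qF3-1063 and 6-qF3-28913 had 35.0% and 22.5% of their reads in this size range, or 34.2% and 12.98% without control replicate 1. The 5 genes of 10-qC1 together gave the most reads of a band, 109, 76 and 107 in control and 164, 188 and 104 in IR libraries.

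Control replicate 1 stood apart most in reads of 29 to 31 nt that began with U, a window chosen after the length profiles were seen. It held 291 such reads of 282 distinct sequences, 19.4% of its reads in the 88 genes, and 98.3% of them were sense. The other controls held 25 and 24 and the IR libraries 23, 27 and 15, which was 1.58% to 2.90% of their reads. Almost none of these sequences recurred: 1 of the 24 in control replicate 3 and 1 of the 27 in IR replicate 2 were among those of control replicate 1, and none of those in the other 3 libraries. Annotated small RNA accounted for 2 of the 291 reads. Reads outside this window differed too: at 24 to 28 nt 50.7% of its reads began with U and 73.7% were sense, against 24.5% to 36.0% and 59.6% to 67.4% in the other 5 libraries. With the U-first reads of 29 to 31 nt left out of every library, reads of 24 to 32 nt still made up 34.1% of its other reads, against 24.2% and 25.2% in the other controls and 21.8%, 23.3% and 25.6% after IR.

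The excess was found across many genes and not in the gene-named loci. In control replicate 1 such reads fell in 60 of the 88 genes, and the 10 leading genes held 49.5% of them. Of 68 genes with such reads in any library, 44 had more in control replicate 1 than in the other 5 libraries together, 21 had them in control replicate 1 alone and 8 only in the others. 18-qE1-36451 had 24 in control replicate 1 and 1 in the others, 9-qC-31469 19 and 0, 17-qA3.3-27363 16 and 3, 6-qF3-28913 15 and 5, 4-qC5-17839 15 and 1, 7-qD2-24830 13 and 1, 12-qE-23911 12 and 2, and 5-qF-14224 11 and 0. The same kind of read made up 2.36% of the reads of gene-named piRNA genes in control replicate 1 and 2.34% to 2.78% in the other libraries. In the 12 band-named genes set aside it made up 4.20% in control replicate 1 and 1.32% to 2.44% in the others. With 1 such library no test across samples was made.

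**Figure D2:**
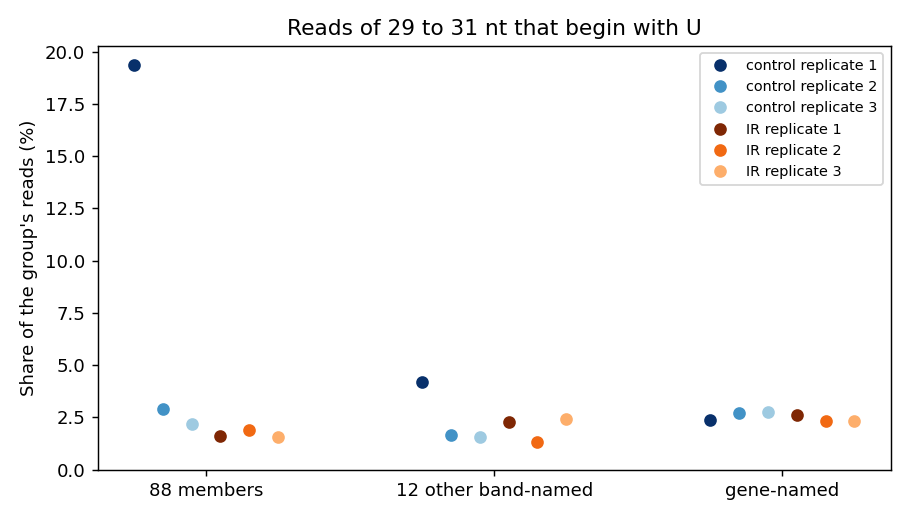
Reads of 29 to 31 nt beginning with U as a share of all one-gene reads (vertical axis, percent) in the 88 genes, the 12 other band-named genes and the gene-named genes, with 1 point per library. Control replicate 1 lies at 19.4% in the 88 genes and the other 5 libraries between 1.58% and 2.90%, while all 6 lie between 2.34% and 2.78% in the gene-named genes.

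**Figure D3:**
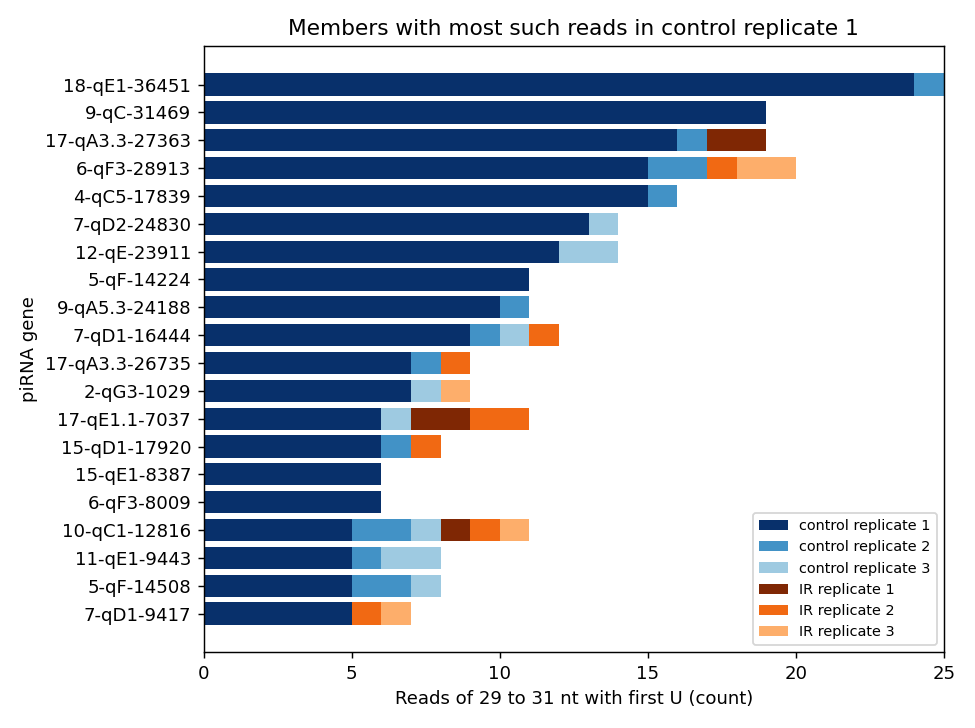
Number of reads of 29 to 31 nt beginning with U (horizontal axis, count) in the 20 genes with most of them in control replicate 1, stacked by library. The dark blue part, control replicate 1, makes up most of each of the leading bars, as in 9-qC-31469 with 19 of 19.

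The comparison of IR with control asked which of these genes changed in read number with irradiation. No gene passed the threshold. Of 39 genes with enough reads to be tested (the other 49 did not pass the filter on low counts), 0 were called with edgeR at adjusted p under 0.05, against 7.77% of all 103 piRNA genes tested. The lowest adjusted p of the 39 was 0.235. At an unadjusted p under 0.05 there were 3 with edgeR (6-qF3-28913, 10-qC1-12816 and 10-qC1-875), against 19.4% of all, and 1 with DESeq2, against 12.6%. DESeq2 also called 0 after adjustment, against 6.8% of all. Fewer cells that make an RNA and less RNA per cell cannot be told apart in such libraries.

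The fold changes were small. Their median was 0.10 on the log2 scale (IR over control), beside 0.04 over all genes tested, and they ranged from -0.99 to 0.86, with 25 above 0 and 14 below. With the read total in place of TMM the medians were 0.19 and 0.12. The median standard error of 0.33 is of the size of most of these differences. In simulated counts for the 103 genes the fit recovered 49.5% of changes of 2-fold and 87.5% of those of 4-fold. These shares are over all genes tested and were not worked out for the band-named genes alone. Some of the latter had few reads or a large SE. 7-qD2-11976 had 41 reads and an SE of 0.61, and 9-qC-31469, high in control replicate 1, an SE of 0.51. The simulation therefore does not give the recovery for such genes. It also gave every gene the same spread between libraries (a common dispersion of 0.0453) and set no library apart as control replicate 1 was.

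The highest values belonged to 18-qE1-1295, 13-qA5-464, 10-qC1-875, 10-qC1-12816 and 14-qA3-284. 18-qE1-1295 had 10, 2 and 10 control and 17, 16 and 11 IR reads (edgeR, adjusted p = 0.281, log2 fold change 0.86 with an SE of 0.41). 13-qA5-464, whose 60 reads all differed in sequence, had 6, 5 and 10 control and 12, 14 and 13 IR reads (edgeR, adjusted p = 0.281, log2 fold change 0.75 with an SE of 0.38). 10-qC1-875 rested on dispersed reads too, 20, 11 and 31 in control and 40, 38 and 29 in IR libraries, or 2739 ± 1024 and 4427 ± 284 CPM (SD, n = 3). In these 3 genes all IR libraries lay above all controls in CPM.

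10-qC1-12816 had 6121 ± 1154 CPM in control and 8753 ± 1569 in IR libraries (SD, n = 3). With edgeR its adjusted p was 0.254 and its log2 fold change 0.53, with an SE of 0.24. Without reads of annotated small RNA or A runs, which drops part of its 7SL-like reads, the value was 0.15. 14-qA3-284, led by the miR-148b-3p read (5, 3 and 9 in control, 17, 11 and 6 in IR libraries), had 3112 ± 634 and 4508 ± 479 CPM (edgeR, adjusted p = 0.281, log2 fold change 0.53 with an SE of 0.27). Counted on reads with 1 mapped place only, it was higher by 0.88 with an adjusted p of 0.0347 (edgeR), the 1 gene of these called in a setting that called 8.93% of the 56 piRNA genes it could test. With all reads divided by their number of mapped places 2 genes were called lower in IR, 14-qC1-1010 and 6-qC3-6258, against 9.84% of all. With no filter on low counts it was 1, 10-qC2-545, against 5.61%. Its reads numbered 7, 1 and 2 in control and 0 in each IR library. All 6 of its reads of 24 to 32 nt began with U and were in control replicate 1. Without that library 3 reads remain, and the fit with no filter was not repeated without it.

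The lowest values belonged to genes listed above for their long U-first reads in control replicate 1. Such reads made up 19 of 39 reads of that library in 9-qC-31469 and 13 of 48 in 7-qD2-24830. They made up 12 of 45 in 12-qE-23911, 15 of 60 in 6-qF3-28913 and 16 of 58 in 17-qA3.3-27363. 18-qE1-36451, with the most such reads (24), had a value of -0.52. Whether these reads account for the low values was not tested. 9-qC-31469 had 39, 8 and 11 control and 11, 15 and 6 IR reads (edgeR, adjusted p = 0.281, log2 fold change -0.99 with an SE of 0.51). Control replicate 1 was high, the other 5 libraries overlapped, and the value without it was -0.04. 7-qD2-24830 had 48, 11 and 17 control and 17, 21 and 9 IR reads (-0.83, and -0.05 without control replicate 1). In that gene the miR-183-5p-like read also leaned to control replicate 1, with 16, 3 and 5 control and 0, 3 and 0 IR reads.

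12-qE-23911 had 45, 15 and 17 control and 18, 16 and 15 IR reads (-0.77, and -0.17 without control replicate 1). 6-qF3-28913 had 60, 20 and 37 control and 22, 31 and 21 IR reads (-0.78, adjusted p = 0.235, edgeR; -0.40 without control replicate 1). 17-qA3.3-27363 had 58, 36 and 29 control and 22, 42 and 21 IR reads (-0.69, and -0.43 without control replicate 1). Control replicate 1 was the highest of the 6 libraries in each of these genes, and groups overlapped in all 3.

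Control replicate 1 was the highest of the 6 libraries in CPM for 16 of the 39 genes and for 12 of the 14 with a value below 0. A value below 0 means a higher control level, so the count among the 14 follows in part from the choice. The same counts were not made over all genes tested. Without control replicate 1, 41 genes were tested, 32 above 0 and 9 below, with a median of 0.37 beside 0.06 over all genes. Of the 41, 0 were called (edgeR), against 7.69% of all, with a lowest adjusted p of 0.201. 18-qE1-36451, with 45, 6 and 15 control and 17, 15 and 17 IR reads, went from -0.52 to 0.44. Without control replicate 3, 4 genes were called lower in IR: 9-qC-31469 (-1.37, adjusted p = 0.0133), 7-qD2-24830 (-1.14, 0.0211), 12-qE-23911 (-1.10, 0.0211) and 17-qA3.3-27363 (-0.99, 0.0227, all edgeR), where 13.4% of all genes were called and 8.93% were called lower. These are 4 of the 8 genes listed above for their U-first reads in control replicate 1. That library weighs more in the control group when control replicate 3 is left out. The overlap therefore follows in part from how the list was chosen and is not a separate result.

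**Figure D4:**
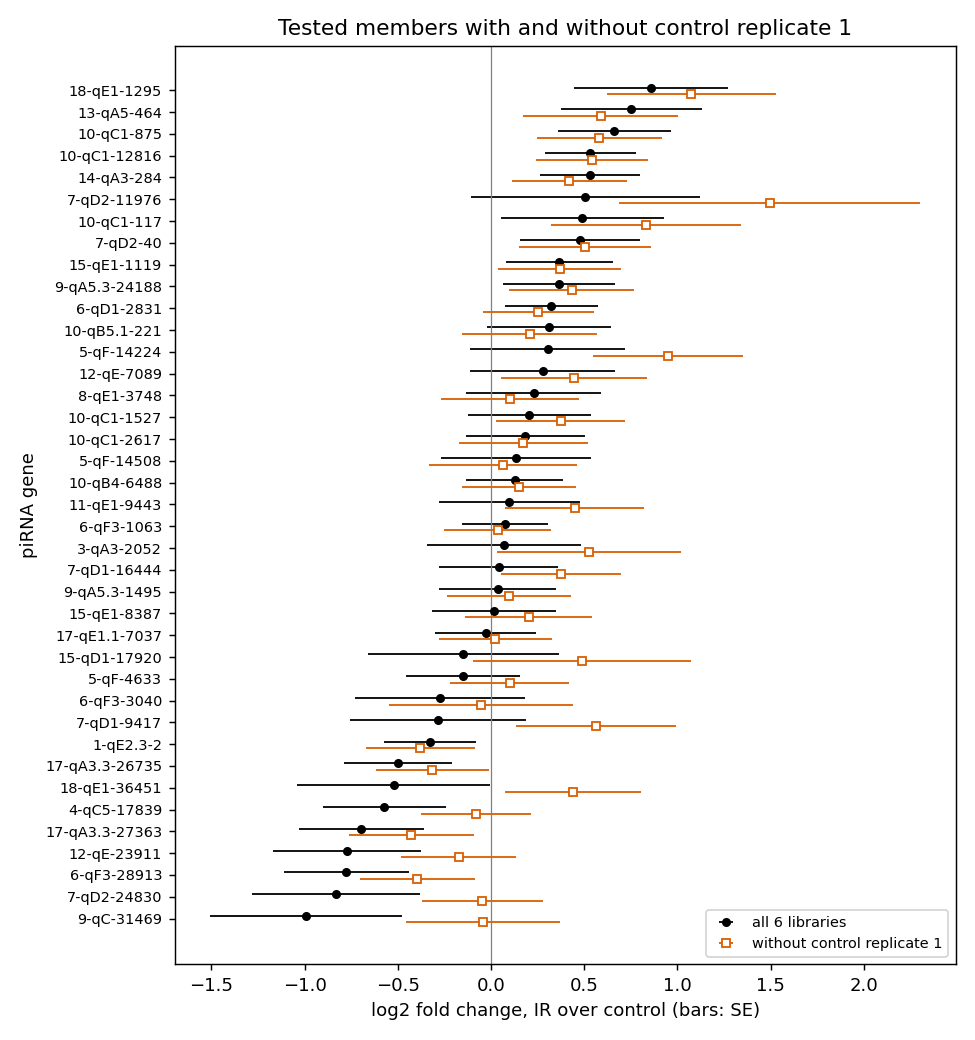
log2 fold change of IR over control (horizontal axis) for the 39 tested genes, with SE bars, from all 6 libraries (black circles) and without control replicate 1 (orange squares). The lowest circle, 9-qC-31469 at -0.99, moves to -0.04, and squares at the top of the list stay above 0.

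In CPM the groups did not overlap in 6 of the 39 genes, against 24.3% of all 103. The 5 with IR above control were 6-qD1-2831, 14-qA3-284, 10-qC1-875, 13-qA5-464 and 18-qE1-1295, against 13.6% of all, and 17-qA3.3-26735 was the 1 with IR below, against 10.7%. 17-qA3.3-26735 had 33, 18 and 24 control and 18, 22 and 18 IR reads (edgeR, adjusted p = 0.290, log2 fold change -0.50 with an SE of 0.29). In read counts its groups overlapped, as did those of 6-qD1-2831, 14-qA3-284 and 10-qC1-875. Its nearest values in CPM were 2971 in control and 2889 in IR libraries.

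**Figure D5:**
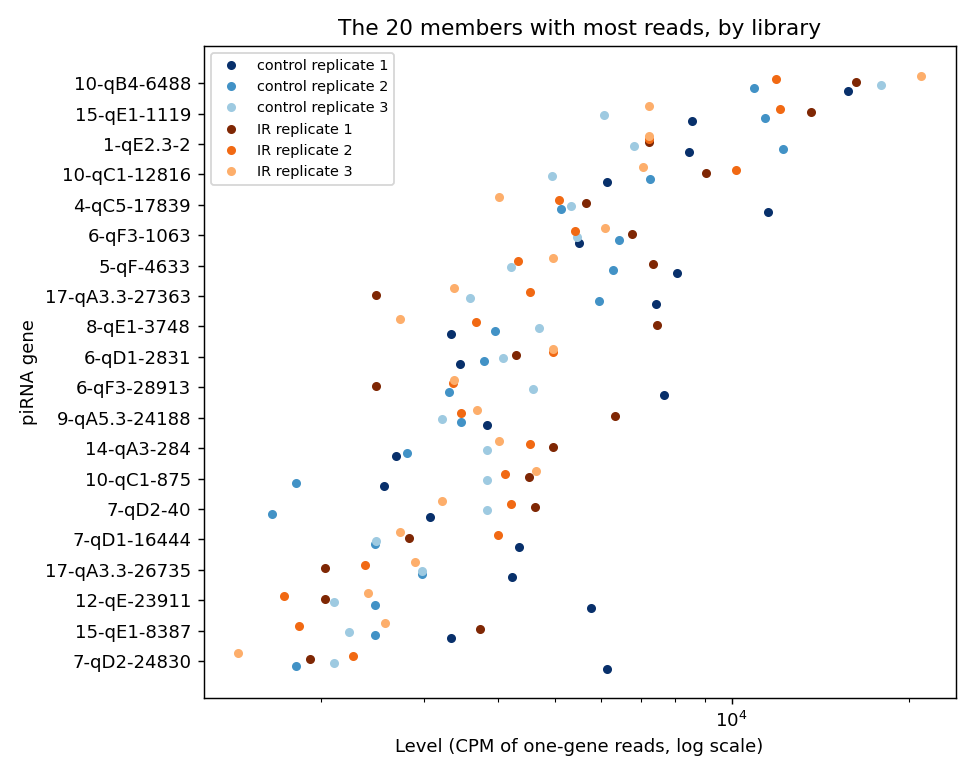
Level of the 20 genes with most reads (horizontal axis, CPM of one-gene reads, log scale), with 1 point per library. Points of control and IR libraries overlap in most genes, and control replicate 1 (dark blue) lies far right of the others in 7-qD2-24830, 12-qE-23911 and 4-qC5-17839.

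Among single sequences 5 from these genes had enough reads to be tested, and 0 were called, against 8.06% of the 124 sequences tested. At an unadjusted p under 0.05 there were 0, against 22.6% with edgeR and 17.7% with DESeq2, which called 0 as well. The mitochondrial tRNA fragment of 10-qB4-6488 had an adjusted p of 0.342 (edgeR) at a log2 fold change of 0.94 with an SE of 0.53, and the Mir297 read of 9-qA5.3-24188, with 8, 17 and 14 control and 29, 18 and 6 IR reads, 0.55 (SE 0.46). The read of 4-qC5-17839, with 36, 10 and 5 control and 19, 5 and 5 IR reads, had -0.67 (SE 0.71), and 0.45 without control replicate 1. With no filter on low counts the printed 7SL read of 10-qC1-12816, with 1, 0 and 0 control and 7, 10 and 9 IR reads, was called (adjusted p = 0.0235, edgeR), in a setting that called 0.0551% of 27231 sequences. A count of 0 allows up to 3 reads.

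The make-up of the reads was compared over the 20 regroupings of the 6 libraries, an exact two-sided permutation test whose smallest p is 0.1, so that no difference could reach 0.05. The 88 genes took 15.3% ± 3.39 of control and 16.1% ± 0.111 of IR one-gene reads (SD, n = 3, exact permutation p = 1). The IR libraries, at 16.0% to 16.2%, lay below control replicate 1 (19.2%) and above control replicates 2 and 3 (13.4% and 13.2%). Without replicate 1 the control mean was 13.3% and the difference 2.79 percentage points (exact permutation p = 0.1). Reads of 24 to 32 nt made up 33.4% ± 11.7 and 24.9% ± 1.82 (exact permutation p = 0.2), and the control mean was 26.6% without replicate 1. First U stood at 43.4% (27.7% to 65.9%) and 32.8% ± 2.52 of these (exact permutation p = 0.6), with a control mean of 32.1% without replicate 1. A at base 10 stood at 29.5% ± 2.19 and 31.3% ± 1.61 and sense reads at 59.4% ± 6.29 and 55.3% ± 0.827 (exact permutation p = 0.4 for each). The control mean of sense reads was 55.9% without replicate 1. At an equal depth of 861 reads, control libraries held 720 ± 21.6 and IR libraries 717 ± 13.4 distinct sequences (exact permutation p = 0.8). The control mean was 708 without replicate 1. Adjustment over these 6 measures could only raise the p-values.

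Within each library the 88 genes were then set beside the 114 gene-named piRNA genes. These values are a description with no test, because the 88 are what was left after 12 band-named genes were removed with results known, while no gene-named gene was removed. They pool the reads of each set, so genes with many reads weigh most. Sense reads took 57.3% of the reads in the 88 genes and 90.9% in the gene-named ones and were lower in 6 of 6 libraries. A at base 10 was more frequent in 6 of 6 libraries, 30.4% against 21.4%, and distinct sequences at equal depth were more numerous in 6 of 6, 719 against 599. The reads of 6-qF3-1063 from position 696 and the 24-nt read of 5-qF-14508 carry A at base 10, so this share counts single start positions many times. With distinct sequences counted a single time it was 28.4% in control and 28.5% in IR libraries. That value was not worked out for the gene-named genes. Reads of 24 to 32 nt were fewer in 5 of 6 libraries, 29.1% against 42.2%, the exception being control replicate 1, without which the shares were 25.6% and 42.1%. First U stood at 38.1% and 35.2%, and at 32.6% and 34.9% without control replicate 1. The 12 band-named genes set aside had 26.2% of reads at 24 to 32 nt, 21.0% first U, 18.1% A at base 10, 31.7% sense reads and 342 distinct sequences.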

How the data were processed

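Small RNA was sequenced in 6 libraries, 3 control and 3 IR; molecules of 18 to 50 nt were size-selected for the NEBNext small RNA library kit, per the labels' protocols. The deposited values are read counts: copies of each sequence, placed by the authors on piRNA cluster transcripts. The other deposited value is the number of mapped places. The build was mm10, per the submitters' processing notes. Aligner, trimming and mismatch settings: not given in the sources used here.

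One-gene reads were summed per piRNA gene and per sequence over the whole files and tested in R 4.3.3 with edgeR 4.0.16 and limma 3.58.1, using TMM, filterByExpr, quasi-likelihood F-test, Benjamini-Hochberg adjustment over all features tested and a threshold of 0.05. SE was taken as the log2 fold change over the root of F. CPM uses effective library sizes. DESeq2 1.42.0, other normalizations, filters, read sets and left-out replicates were alternatives. The fits were tested on simulated data. Python 3.11.15, pandas 2.3.3, numpy 2.4.6, scipy 1.17.1 and matplotlib 3.10.9 were used. Files hold only cluster reads, so their totals (7788 to 11280 reads) are not library depth. The limit given for a count of 0 covers counting error only.

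Libraries of a group differed beyond sampling noise (largest chi-square p = 1.08e-08 over piRNA genes), so each was kept as a library of its own. Transcript sequences and chromosome positions of the clusters were not used here. Positions count from 1 on the transcript.

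The genes and lists were chosen with earlier results of these data known. Named genes were the 20 with most reads, the 5 highest and 5 lowest fold changes, and the 3 highest and 3 lowest in the share of 24 to 32 nt reads (60 reads or more) and in first U (40 reads of that size or more). Named sequences were the 10 most read, any called, and the 6 most read of 26 to 32 nt with first U, of which those that carry a result are printed. Others, and genes named for their reads in control replicate 1, were chosen after their values were seen. A sign-flip test against gene-named genes was planned and is not reported, since the genes were chosen with results known. No sequence from chromosome 18 is printed.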

Additional observations from a re-analysis of the deposited data

How the results depend on the processing

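Of the values recomputed for the comparisons, 84 kept their direction or their number of calls, 10 changed direction and 5 changed their number of calls. The 84 include differences from the gene-named genes, whose test is not reported. For shares between IR and control the side of the threshold says nothing, since their exact permutation p could not fall below 0.1. For single genes or sequences 365 kept their direction and side of the threshold, 37 changed direction and 5 passed the threshold only under the alternative. With all reads divided by mapped places the number of genes called went from 0 to 2 (14-qC1-1010 and 6-qC3-6258, both lower in IR). That setting called 9.84% of all genes. With no filter the number was 1 (10-qC2-545), against 5.61% of all. Its 7, 1 and 2 control and 0, 0 and 0 IR reads were mostly in control replicate 1. The number was 1 on reads of 1 mapped place, and between 0 and 4 when each replicate was left out. The number of sequences called, 0, was 1 with no filter and 0 with any replicate left out. In these cases the cause was not tested. Samples of the same number did not deviate together (correlations of -0.167, 0.109 and 0.123 over 103 genes), so the numbers were not taken as pairs; with the replicate block 0 genes and 0 sequences were called, and shares permuted within numbers gave p-values from 0.25, the smallest possible, to 1, as for the 24 to 32 nt share (-8.50 percentage points, p = 0.25, exact permutation).

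The difference (IR minus control, percentage points) in the share of one-gene reads was -0.0712 with distinct sequences counted a single time, -2.09 on 24 to 32 nt reads alone and from -0.199 to 2.79 over left-out replicates. For first U it ranged from -18.4 to 0.703, the last without control replicate 1. For the number of distinct sequences it was 9.28 on reads of 1 mapped place and from -12.3 to 8.32 over left-out replicates. First U against gene-named genes turned to -2.32 without control replicate 1 and to -5.44 at 26 to 31 nt without it, alternatives added after the data were seen, as was leaving out reads of annotated small RNA or A runs.

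These log2 fold changes changed sign. With all reads divided by mapped places the value was -0.0374 for 10-qB4-6488, -0.0510 for 15-qE1-1119, -0.29 for 6-qD1-2831 and -0.18 for 7-qD1-16444. With distinct sequences it was -0.0619 for 6-qF3-1063, 0.0201 for 5-qF-4633, -0.0040 for 15-qE1-8387 and -0.19 for 5-qF-14508. On 24 to 32 nt reads it was -0.26 for 15-qE1-1119 and 0.0116 for 5-qF-4633. Without small RNA reads or A runs it was -0.0746 for 10-qB4-6488 and -0.0658 for 15-qE1-8387. With no filter it was -0.0036 for 6-qF3-1063, -0.0364 for 7-qD1-16444 and -0.0643 for 15-qE1-8387. With DESeq2 it was -0.0222 for 7-qD1-16444 and -0.0416 for 15-qE1-8387. Over left-out replicates the range was -0.14 to 0.24 for 10-qB4-6488, -0.0190 to 0.14 for 6-qF3-1063, -0.43 to 0.10 for 5-qF-4633, -0.29 to 0.41 for 8-qE1-3748, -0.24 to 0.37 for 7-qD1-16444, -0.30 to 0.20 for 15-qE1-8387, -0.68 to 0.0049 for 6-qF3-3040, -0.14 to 0.48 for 5-qF-14508, -0.90 to 0.44 for 18-qE1-36451, -1.45 to 0.45 for the leading read of 4-qC5-17839 and -0.16 to 1.02 for the 45-nt A run. Depth limits all of this: 49 of the 88 genes had too few reads to be tested.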
